A study of Mus musculus with 6 samples.

Results

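The CXC chemokines described here are 8 secreted or membrane-bound attractants of white blood cells, chosen as the rows of a gene count table whose Ensembl identifiers carry the symbols Cxcl1, Cxcl2, Cxcl3, Cxcl9, Cxcl10, Cxcl11, Cxcl14 and Cxcl16 in the GENCODE M21 mouse annotation. All 8 were found among the 26519 genes of the table, and all 8 were among the 12580 genes that passed a filter on low counts. The libraries held RNA of dendritic cells, which take up antigen and show it to T cells, from mouse tumours grown for 10 days after inoculation of MC38, a colon carcinoma line. There were 3 libraries from MAVS KO hosts and 3 from WT hosts. MAVS KO hosts lack MAVS, a mitochondrial adaptor through which RIG-I and MDA5 signal upon binding viral RNA, while the tumour cells inoculated were the same line in both hosts. The comparison asks how host MAVS bears on these cells within the tumour. The sources used here give neither the strain and age of the mice, nor the deleted part of Mavs, nor the way the cells were isolated. Whether replicates were different mice is not labelled either, so a p-value here reflects the spread between these 6 samples, which may be technical.

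CXC chemokines bind G protein-coupled receptors and draw cells along a gradient. Cxcl1, Cxcl2 and Cxcl3 act on CXCR2, attract neutrophils, and are classic targets of NF-kB downstream of interleukin-1, TNF and Toll-like receptors. Cxcl9, Cxcl10 and Cxcl11 act on CXCR3, attract activated T cells and NK cells, and are induced by interferon-gamma, Cxcl10 also by type I interferon and NF-kB. Cxcl16 is made as a transmembrane protein that binds CXCR6 and can be shed from the cell surface, and Cxcl14 is a chemokine made by many resting epithelia and stromal cells. In tumours, dendritic cells and macrophages are known sources of the CXCR3-binding ligands, which help to place T cells.

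The stretches before the start sites of Cxcl1, Cxcl2, Cxcl3, Cxcl9 and Cxcl10 are shown so that members of both classes can be read side by side. They are RefSeq sequences on GRCm38.p6, written 5′ to 3′ on the strand of the gene, and capitals mark matches to any of 4 motifs. The motifs were the NF-kB consensus (kB), the interferon-stimulated response element (ISRE, GAAA, then 2 bases of any kind, then GAAA), the interferon-gamma activated site (GAS, TTCNNNGAA) and the AP-1 site (TGANTCA), searched on both strands in the 250 bases before each start. RefSeq had an entry for 6 of the 8 members.
Cxcl1, chr5:90891125-90891244, plus strand: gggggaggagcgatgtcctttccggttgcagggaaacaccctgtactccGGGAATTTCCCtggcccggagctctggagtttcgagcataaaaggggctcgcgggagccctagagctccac
Cxcl2, chr5:90903779-90903898, plus strand: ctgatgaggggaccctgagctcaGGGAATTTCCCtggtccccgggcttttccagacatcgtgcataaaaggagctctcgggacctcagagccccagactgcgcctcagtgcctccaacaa
Cxcl3, chr5:90785981-90786100, plus strand: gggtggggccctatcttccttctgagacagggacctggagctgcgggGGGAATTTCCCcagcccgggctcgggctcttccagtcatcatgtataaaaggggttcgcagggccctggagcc
Cxcl9, chr5:92328080-92328329, minus strand: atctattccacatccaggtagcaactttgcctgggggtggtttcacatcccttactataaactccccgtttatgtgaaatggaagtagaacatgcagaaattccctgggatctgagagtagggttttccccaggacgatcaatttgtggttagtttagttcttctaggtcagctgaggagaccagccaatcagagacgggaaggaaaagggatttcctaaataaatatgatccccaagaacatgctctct
Cxcl10, chr5:92348890-92349139, minus strand: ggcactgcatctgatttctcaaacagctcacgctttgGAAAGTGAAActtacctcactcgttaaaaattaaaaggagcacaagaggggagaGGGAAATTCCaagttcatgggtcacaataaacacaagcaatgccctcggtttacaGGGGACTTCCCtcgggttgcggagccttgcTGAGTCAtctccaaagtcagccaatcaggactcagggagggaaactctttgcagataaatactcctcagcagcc

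The neutrophil-attracting members shared the same letters in these windows. Cxcl1, Cxcl2 and Cxcl3 each held 2 overlapping kB matches, which began 71, 97 and 73 bases before the start, and none held an ISRE, GAS or AP-1 match. The CXCR3-binding pair differed from each other. Cxcl10 held 3 kB matches, of which 2 overlapped, together with 1 ISRE match 213 bases and 1 AP-1 match 74 bases before the start, while Cxcl9 held none of the 4. Cxcl14, not printed, held 1 ISRE match and 1 GAS match. Among 32851 mouse promoters, 7.25% held a kB match, 2.98% an ISRE match, 7.02% a GAS match and 6.75% an AP-1 match in the same window. A match describes letters in a window and does not show that a factor binds there. The patterns were searched letter by letter, so a window without a match, as for Cxcl9, may still hold a variant site.

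Library totals were 14466640 to 18862534 counts in MAVS KO and 17357031 to 20851733 counts in WT. Values are TMM-scaled CPM, a count relative to the effective library size, and tests are edgeR's quasi-likelihood F test with Benjamini-Hochberg adjustment over all 12580 genes and a threshold of 0.05. Mavs stood at 8.99, 12.8 and 9.45 CPM in MAVS KO, against 33.9, 39.7 and 39.7 CPM in WT (log2 fold change -1.86, SE 0.18, adjusted p = 0.0017). The groups did not overlap, and Mavs transcripts were still counted in the MAVS KO libraries. Of 14 conventional dendritic cell markers 1 was higher in MAVS KO (Sirpa, log2 fold change 0.56) and 4 were lower, namely Flt3 (-2.01), Xcr1 (-2.18), Cd209a (-1.86) and Zbtb46 (-1.20), and the median of the list was -0.37. Their summed level, 34547 to 44463 CPM in MAVS KO and 30863 to 37889 CPM in WT, came mostly from Cd74 and H2-Ab1, which did not pass. Of 8 mature migratory dendritic cell markers 7 were tested and 3 were higher, namely Ccr7, Ccl22 and Cd200. The list summed to 603 to 836 CPM in MAVS KO and 463 to 528 CPM in WT, mostly from Ccl17, which did not pass. Markers of macrophages were abundant too, with sums of 28331 to 35876 CPM in MAVS KO and 26610 to 31868 CPM in WT. Most of each sum came from Lyz2 (log2 fold change 0.03). Of these 12, 0 passed in edgeR or limma-voom, with 8 at an unadjusted edgeR p below 0.05, against 2009 of all 12580 tested genes. DESeq2 called 3 higher and 1 lower, against 772 genes called in all, and the list median was 0.29 in edgeR. C1qa, C1qb, C1qc, Mrc1, Cd68, Fcgr1 and Trem2 were higher in every MAVS KO library than in every WT library. Apoe was separated the other way. Among all tested genes 11.2% were separated with MAVS KO above and 10.6% with MAVS KO below. Of 6 monocyte markers Chil3 was higher (log2 fold change 2.46) and 5 did not pass, with a list median of -0.02. Chil3 averaged 7386 CPM in MAVS KO and 1345 CPM in WT, within list sums of 8493 to 17042 CPM in MAVS KO and 5590 to 6363 CPM in WT, whereas Ccr2 averaged 1115 CPM in MAVS KO and 1250 CPM in WT. When each library was left out, Xcr1 and Cd209a passed every time, while the edgeR adjusted p reached 0.0515 for Flt3 (without MAVS KO replicate 1), 0.172 for Zbtb46, 0.104 for Sirpa and 0.120 for Chil3. The samples were bulk RNA, in which fewer cells of a type and less RNA per cell cannot be told apart, and the part these markers have in the chemokine values was not tested.

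All 8 chemokines had a log2 fold change above 0, against 49.6% of all tested genes, although Cxcl1 turned to -0.05 when library size alone was used for scaling. That scaling moved the median of all tested genes to -0.17, beside -0.0022 with TMM. Cxcl2 and Cxcl9 passed the test, both higher in MAVS KO. Among all tested genes 2.81% passed, 1.76% higher and 1.05% lower in MAVS KO. In 4 members, Cxcl2, Cxcl3, Cxcl9 and Cxcl10, every MAVS KO library lay above every WT library, and no member had the groups separated the other way. Among all tested genes 21.8% had groups that did not overlap, 11.2% with MAVS KO above WT and 10.6% with MAVS KO below. The median log2 fold change of the 8 members was 0.51.

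**Figure D1:**
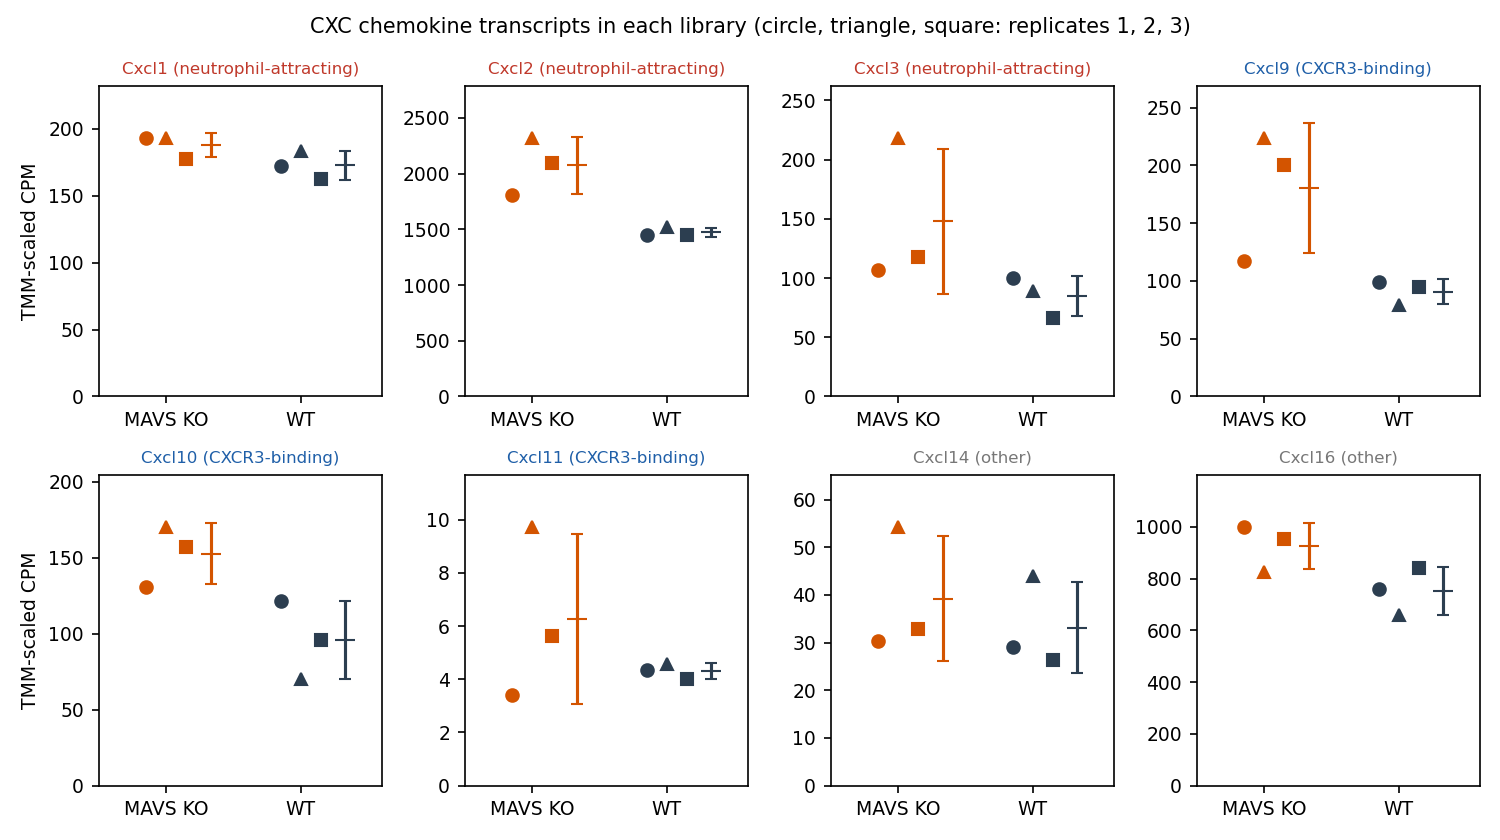
Each panel shows 1 chemokine, with CPM (TMM-scaled, axis from 0) for each MAVS KO library on the left and each WT library on the right, and a bar at the group mean with its SD (n = 3 each). Cxcl2, Cxcl3, Cxcl9 and Cxcl10 have all MAVS KO points above all WT points, and Cxcl1, Cxcl11, Cxcl14 and Cxcl16 do not.

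**Figure D2:**
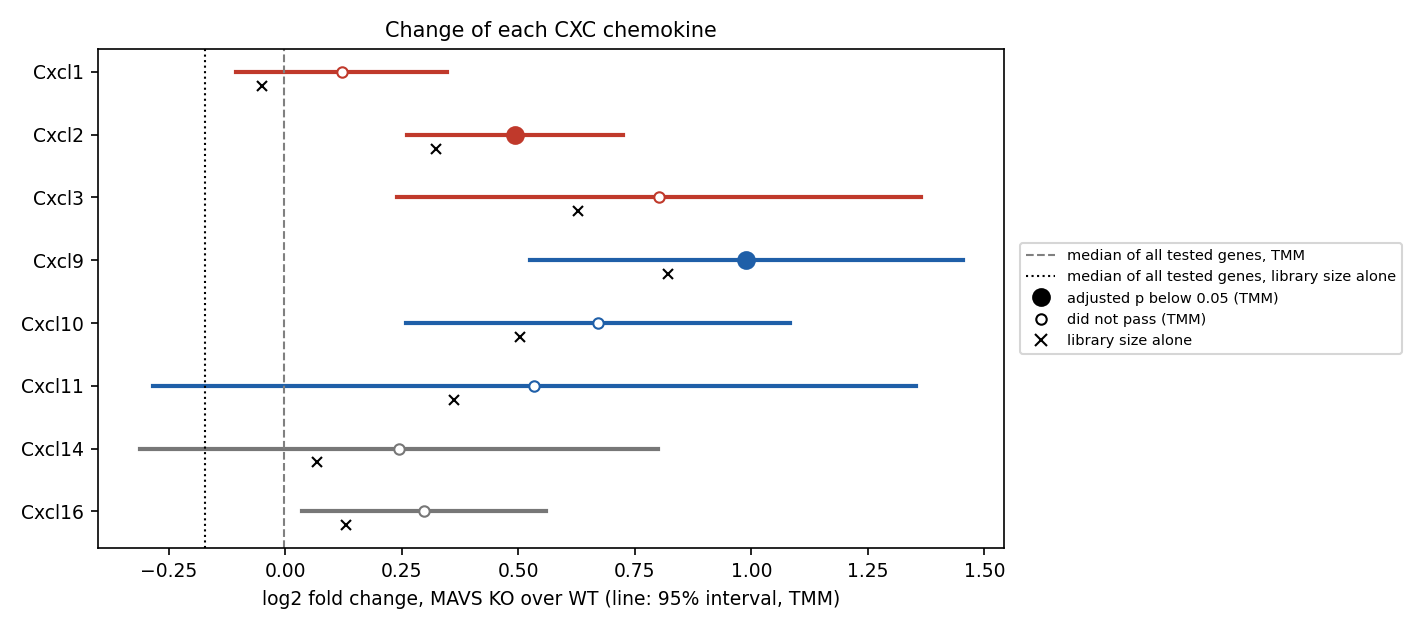
The log2 fold change of MAVS KO over WT is plotted for each of the 8 chemokines with its 95% interval from the edgeR fit. Crosses mark the value with library size alone, and vertical lines the median of all tested genes under each scaling. All 8 TMM estimates lie above 0, and the intervals of Cxcl1, Cxcl11 and Cxcl14 include 0. The cross of Cxcl1 lies at -0.05.

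Per kilobase of the longest coding transcript, which allows levels to be compared between genes, the 8 members kept 1 order in both groups. Cxcl2 was the most abundant at 1116 ± 137 CPM per kilobase in MAVS KO and 793 ± 20.97 CPM per kilobase in WT (SD, n = 3 each). Cxcl16 came next, at 343 ± 33.4 CPM per kilobase in MAVS KO and 279 ± 34.2 CPM per kilobase in WT, and Cxcl1 followed at 197 ± 9.60 CPM per kilobase in MAVS KO and 181 ± 11.3 CPM per kilobase in WT. Cxcl3, Cxcl10 and Cxcl9 held the middle of the order. The place of Cxcl3 depends on the length used, since its annotated exons cover 3498 bases and its longest coding transcript 1016. Cxcl14 was at 21.5 ± 7.17 CPM per kilobase in MAVS KO and 18.1 ± 5.22 CPM per kilobase in WT, and Cxcl11 was last at 1.65 ± 0.842 CPM per kilobase in MAVS KO and 1.14 ± 0.0772 CPM per kilobase in WT. Between neighbours in this order, the libraries overlapped for Cxcl1 with Cxcl3 in MAVS KO and for Cxcl3 with Cxcl10 in both groups, and the other neighbours were separated.

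Of the neutrophil-attracting members, Cxcl2 rose in MAVS KO, Cxcl3 was higher in every MAVS KO library without passing the test, and Cxcl1 overlapped between the groups. Cxcl2 (ENSMUSG00000058427, chr5:90903871-90905938, plus strand, mm10), also known as MIP-2 and a fast product of activated myeloid cells, stood at 1812, 2322 and 2092 CPM in MAVS KO, against 1453, 1519 and 1450 CPM in WT. The lowest MAVS KO library was above the highest WT library. Its log2 fold change was 0.49 (SE 0.10, 95% interval 0.26 to 0.72, edgeR adjusted p = 0.0364), a fold of 1.41, in 3 of 3 libraries. This call did not survive leaving out any 1 of the 6 libraries, where the log2 fold change ran from 0.41 to 0.58 and the edgeR adjusted p from 0.0511 to 0.152, nor the use of library size alone (0.108).

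Cxcl3 (ENSMUSG00000029379, chr5:90786103-90789600, plus strand) stood at 106.9, 218.5 and 118.1 CPM in MAVS KO, against 99.8, 88.6 and 65.9 CPM in WT. MAVS KO replicate 2 was far above the other libraries, and the groups did not overlap. It had a log2 fold change of 0.80 (SE 0.25, 95% interval 0.24 to 1.36, edgeR adjusted p = 0.142), and 0.41 without MAVS KO replicate 2. Cxcl1 (ENSMUSG00000029380, chr5:90891241-90893115, plus strand), also known as KC, had the narrowest spread of the 8 members, with a highest library 1.19 times the lowest. It stood at 193.4, 193.2 and 177.5 CPM in MAVS KO, against 172.5, 183.8 and 162.4 CPM in WT, a log2 fold change of 0.12 (SE 0.10, 95% interval -0.11 to 0.35, edgeR adjusted p = 0.644).

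The 3 genes lie within one cluster on chromosome 5 and resemble each other in sequence, which could let reads be assigned to the wrong member. The longest coding transcript of Cxcl2 matched a transcript of Cxcl3 at 91.6% identity over 320 bases, and that of Cxcl3 matched a transcript of Cxcl2 at 90.1% over 354 bases. That of Cxcl1 was less alike, at 78.1% over 347 bases of Cxcl2 and 76.1% over 330 bases of Cxcl3. With the counts of Cxcl2 and Cxcl3 summed, an alternative chosen after seeing the data, the log2 fold change was 0.51 (SE 0.11, 95% interval 0.27 to 0.76, edgeR adjusted p = 0.0376).

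Of the CXCR3-binding members, Cxcl9 rose in MAVS KO, Cxcl10 was higher in every MAVS KO library without passing the test, and Cxcl11 was counted at a low level in both groups. Cxcl9 (ENSMUSG00000029417, chr5:92321347-92328079, minus strand), known as MIG and the member of this class most dependent on interferon-gamma, stood at 117.1, 224.0 and 200.2 CPM in MAVS KO, against 98.8, 78.9 and 94.8 CPM in WT. MAVS KO replicate 1 was closer to the WT libraries than to the other MAVS KO libraries, yet above all 3 of WT. The log2 fold change was 0.99 (SE 0.21, 95% interval 0.53 to 1.45, edgeR adjusted p = 0.0364), a fold of 1.99. Without MAVS KO replicate 1 it was 1.22 and passed (edgeR adjusted p = 0.0117). Leaving out any other library ended the call, with the log2 fold change down to 0.81 without MAVS KO replicate 2, and the highest edgeR adjusted p over these exclusions was 0.158. The limma-voom test gave an adjusted p of 0.0506, and edgeR with library size alone gave 0.0562.

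Cxcl10 (ENSMUSG00000034855, chr5:92346638-92348889, minus strand), known as IP-10, stood at 130.5, 170.2 and 157.2 CPM in MAVS KO, against 121.3, 70.0 and 96.1 CPM in WT. WT replicate 1 came closest to the MAVS KO libraries, and the groups did not overlap. The log2 fold change was 0.67 (SE 0.19, 95% interval 0.26 to 1.08) and missed the threshold with an edgeR adjusted p of 0.0935. The adjusted p was 0.012 with the DESeq2 Wald test and 0.0467 without WT replicate 1 in edgeR. It was highest, at 0.295, in edgeR without MAVS KO replicate 2. The lowest, 6.28e-05, came only from edgeR without the filter on low counts, and the next lowest was the DESeq2 value. Cxcl11 (ENSMUSG00000060183, chr5:92359544-92365485, minus strand), known as I-TAC, is annotated as a polymorphic pseudogene, since the reference strain carries a form with a disrupted reading frame. It had 61, 145 and 77 reads in MAVS KO, against 88, 86 and 87 reads in WT, which is 3.43, 9.72 and 5.64 CPM in MAVS KO, against 4.34, 4.59 and 4.01 CPM in WT. MAVS KO replicate 1 was the lowest and MAVS KO replicate 2 the highest of all 6 libraries. Its log2 fold change was 0.53 (SE 0.37, 95% interval -0.28 to 1.35, edgeR adjusted p = 0.554), and 0.07 without MAVS KO replicate 2.

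Set side by side, the classes were not separated by genotype over all 6 libraries. The mean log2 fold change was 0.47 over Cxcl1, Cxcl2 and Cxcl3 and 0.73 over Cxcl9, Cxcl10 and Cxcl11, a difference of -0.26 that ran from -0.39 to -0.15 when each library was left out. With each gene set against its own WT mean, the neutrophil-attracting members averaged 0.27, 0.73 and 0.35 on the log2 scale in MAVS KO replicates 1 to 3, against 0.08, 0.07 and -0.15 in the WT replicates. The CXCR3-binding members averaged 0.18, 1.12 and 0.76 in the MAVS KO replicates, against 0.17, -0.17 and 0.00 in the WT replicates. The value of 0.18 was lowered by Cxcl11, the least abundant member. In MAVS KO replicate 1 Cxcl9 was at 0.37, Cxcl10 at 0.48 and Cxcl11 at -0.33, against 0.13, 0.38 and 0.01 in WT replicate 1. Neutrophil-attracting minus CXCR3-binding was therefore 0.10, -0.38 and -0.41 in MAVS KO and -0.09, 0.25 and -0.15 in WT, and the groups overlapped. The overlap came from MAVS KO replicate 1, without which both MAVS KO values lay below the 3 WT values and the difference of mean log2 fold changes was -0.39. No p is given for these averages, because the members were chosen with results known.

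**Figure D3:**
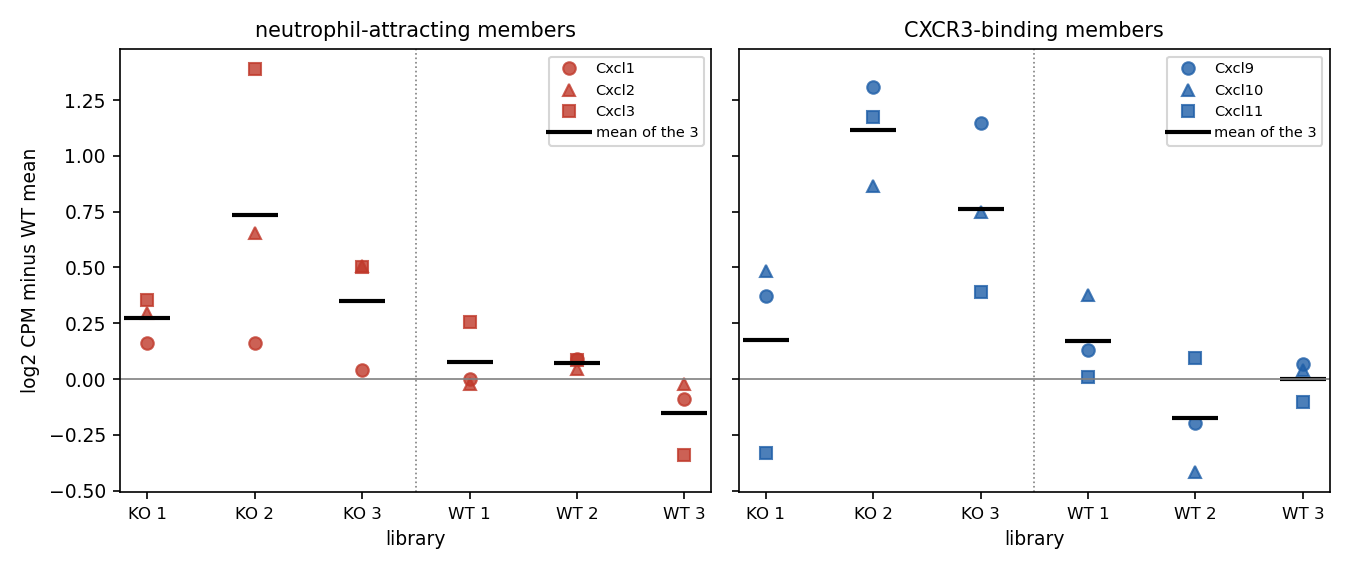
For each library, the mean log2 CPM of a chemokine class is plotted relative to the WT mean of the same genes, with MAVS KO libraries left of WT libraries. Both classes are highest in MAVS KO replicate 2, at 0.73 for the neutrophil-attracting and 1.12 for the CXCR3-binding members. MAVS KO replicate 1 has a CXCR3-binding mean of 0.18, beside 0.17 in WT replicate 1. That mean of 0.18 holds Cxcl11 at -0.33, with Cxcl9 at 0.37 and Cxcl10 at 0.48.

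MAVS KO replicate 2 was the highest library for 6 of the 8 members, namely Cxcl2, Cxcl3, Cxcl9, Cxcl10, Cxcl11 and Cxcl14. Across the 6 libraries the log2 levels of Cxcl2 and Cxcl9, which belong to different classes, had a Pearson correlation of 0.95. That of Cxcl9 and Cxcl10 was 0.90 and that of Cxcl2 and Cxcl3 was 0.87. After each group's mean was taken off, the correlation was 0.83 for Cxcl2 with Cxcl9 and 0.70 for Cxcl9 with Cxcl10. Over all pairs of members it ran from -0.97 (Cxcl14 with Cxcl16) to 0.99 (Cxcl2 with Cxcl11). It was 0.08 for Cxcl1 with Cxcl2, of the same class, and -0.41 for Cxcl1 with Cxcl9. These are descriptions over 6 points that share the 2 groups, library depth and any difference in cell makeup.

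Cxcl16 and Cxcl14 lie outside both classes and on other chromosomes, and neither passed the test. Cxcl16 (ENSMUSG00000018920, chr11:70453983-70459984, minus strand) stood at 999.5, 825.5 and 954.0 CPM in MAVS KO, against 759.4, 658.2 and 842.6 CPM in WT. MAVS KO replicate 2 lay below WT replicate 3, so the groups overlapped. Its difference on the log2 scale was 0.30 (SE 0.12, 95% interval 0.04 to 0.56, edgeR adjusted p = 0.243). Cxcl14 (ENSMUSG00000021508, chr13:56288643-56296551, minus strand) stood at 30.4, 54.3 and 32.9 CPM in MAVS KO, against 29.1, 44.0 and 26.3 CPM in WT. Replicate 2 was the highest library in each group, the groups overlapped widely, and the log2 fold change was 0.24 (SE 0.25, 95% interval -0.31 to 0.80, edgeR adjusted p = 0.718). It was -0.06 without MAVS KO replicate 2. Fibroblast markers, from cells that can make Cxcl14, summed to 15.1 to 49.8 CPM in MAVS KO and 18.5 to 36.1 CPM in WT, with replicate 2 the highest library in each group, as for Cxcl14, and 0 of 5 tested passed in edgeR, DESeq2 or limma-voom, with 0 at an unadjusted p below 0.05. Their part in the Cxcl14 values was not tested.

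Some members overlap a gene on the opposite strand, and the sources used here do not give the strand setting of the counting. Cxcl10 and Cxcl11 overlap Art3, which had 4, 5 and 6 reads in MAVS KO, against 6, 5 and 6 reads in WT. Cxcl16 overlaps Zmynd15, which had 1301, 1008 and 970 reads in MAVS KO, against 921, 847 and 1331 reads in WT (log2 fold change 0.48, edgeR adjusted p = 0.120). Reads of Cxcl16 and Zmynd15 in the shared stretch therefore cannot be assigned to either with certainty.

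Of the other 7 CXC chemokines, 2 were tested and 0 passed in edgeR, DESeq2 or limma-voom, with 0 at an unadjusted p below 0.05. Pf4, the platelet factor also made by some macrophages, stood at 34.7, 58.4 and 42.6 CPM in MAVS KO, against 74.6, 28.1 and 33.5 CPM in WT, and the groups overlapped (log2 fold change -0.01, edgeR adjusted p = 0.997). Ppbp, a platelet ligand of CXCR2, was at 0.986 ± 0.169 CPM in MAVS KO and 1.39 ± 0.776 CPM in WT (SD, n = 3 each), with an edgeR adjusted p of 0.785. Markers of platelets, of which 3 of 5 had reads, summed to 0.220 to 0.730 CPM in MAVS KO and 0.214 to 0.553 CPM in WT. Cxcl5, a further ligand of CXCR2, had 4, 7 and 0 reads in MAVS KO, against 0, 0 and 1 read in WT. Cxcl12, the ligand of CXCR4, had 5, 4 and 0 reads in MAVS KO, against 24, 0 and 13 reads in WT. Cxcl13, the B cell attractant that binds CXCR5, and Cxcl17, a mucosal chemokine, had at most 4 reads in any library, and none of these 4 passed the filter. A library with 0 reads allows a level of up to 0.138 to 0.220 CPM, from 3 reads, for counting error alone. Cxcl15 was not analysed here.

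Among the 8 receptors, Cxcr3 fell in MAVS KO, 0 rose, and 4 of the 5 tested did not pass. Cxcr3, the receptor of Cxcl9, Cxcl10 and Cxcl11, stood at 1.74, 2.08 and 4.47 CPM in MAVS KO, against 12.8, 10.8 and 15.5 CPM in WT. Every MAVS KO library was below every WT library, the opposite order to its ligands Cxcl9 and Cxcl10. For Cxcr3 the log2 fold change was -2.25 (SE 0.36, edgeR adjusted p = 0.0164), and the adjusted p was 0.0565 without MAVS KO replicate 1 and 0.0587 without MAVS KO replicate 2. T and NK cell markers, from cells in which Cxcr3 is well known, summed to 39.0 to 62.6 CPM in MAVS KO and 43.1 to 77.3 CPM in WT. Of these 15, 0 passed in edgeR or limma-voom and 1 with DESeq2, Cd2, which was lower in MAVS KO. At an unadjusted edgeR p below 0.05 there were 2, Cd2 (log2 fold change -0.88) and Cd8a (1.98). Over all 12580 tested genes there were 2009. B cell markers summed to 10.8 to 13.2 CPM in MAVS KO and 32.3 to 53.2 CPM in WT, with 1 of 3 tested lower, and the part of either cell type in the Cxcr3 values was not tested.

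None of the other tested receptors passed. Cxcr2, the receptor of Cxcl1, Cxcl2 and Cxcl3, was at 2.85 ± 0.893 CPM in MAVS KO and 2.96 ± 1.86 CPM in WT (SD, n = 3 each), with an edgeR adjusted p of 0.983. Cxcr6, which binds Cxcl16, was at 4.03 ± 1.21 CPM in MAVS KO and 3.75 ± 0.721 CPM in WT (SD, n = 3 each), with an edgeR adjusted p of 0.932. Cxcr4, the receptor of Cxcl12, stood at 5.84, 9.72 and 10.9 CPM in MAVS KO, against 7.05, 5.61 and 5.85 CPM in WT. Ackr3, a scavenger of Cxcl12, stood at 35.6, 34.4 and 28.4 CPM in MAVS KO, against 14.05, 26.6 and 24.2 CPM in WT, with all 3 MAVS KO libraries above WT (log2 fold change 0.60, edgeR adjusted p = 0.216). Cxcr1, Cxcr5 and Ackr1 had at most 11 reads in any library and were not tested.

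Of 19 genes of the interleukin-1, TNF and NF-kB arm, which induces the neutrophil-attracting members, Il1a and Tlr4 rose in MAVS KO, 0 fell and 17 did not pass. The median log2 fold change of these 19 genes was 0.09. The DESeq2 Wald test passed 4 of them, adding Il1b and Tnf, against 772 genes passed in all. Il1a, the alarm cytokine interleukin-1 alpha, stood at 524, 680 and 638 CPM in MAVS KO, against 314, 296 and 330 CPM in WT (log2 fold change 0.97, SE 0.12, edgeR adjusted p = 0.00783). Tlr4, the sensor of lipopolysaccharide, stood at 195, 196 and 182 CPM in MAVS KO, against 138, 142 and 135 CPM in WT (log2 fold change 0.47, SE 0.10, edgeR adjusted p = 0.0364). The groups did not overlap for either gene. Il1a passed without any 1 library, and Tlr4 passed in none of those exclusions (edgeR adjusted p from 0.0567 to 0.146).

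The most abundant genes of this arm did not pass. Il1b stood at 1767, 2962 and 2363 CPM in MAVS KO, against 1587, 1676 and 1576 CPM in WT (log2 fold change 0.55, SE 0.16, edgeR adjusted p = 0.102). Its highest library was MAVS KO replicate 2, as for Cxcl2 and Cxcl3. Tnf stood at 42.4, 57.9 and 51.7 CPM in MAVS KO, against 36.9, 28.2 and 35.9 CPM in WT (log2 fold change 0.59, edgeR adjusted p = 0.0905), again with no overlap. Nfkbia, the NF-kB inhibitor that NF-kB itself induces, was at 1058 ± 55.4 CPM in MAVS KO and 849 ± 67.1 CPM in WT. Zfp36, which speeds the decay of chemokine mRNAs, was at 1511 ± 25.8 CPM in MAVS KO and 1450 ± 143 CPM in WT (SD, n = 3 each).

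Of 13 genes of the interferon arm, which induces the CXCR3-binding members, 12 were tested and 0 passed, with a median log2 fold change of 0.12. At an unadjusted p below 0.05 there were 3 of these 12 in edgeR, against 2009 of all 12580 tested genes. After adjustment limma-voom and the DESeq2 Wald test each passed 1, Socs1. Socs1, a feedback inhibitor of cytokine receptor signalling, stood at 67.0, 64.3 and 68.5 CPM in MAVS KO, against 30.7, 18.2 and 45.1 CPM in WT (log2 fold change 1.09, SE 0.26, edgeR adjusted p = 0.0541). Irf1, which acts on the promoters of interferon target genes, stood at 301, 264 and 300 CPM in MAVS KO, against 231, 150 and 246 CPM in WT (edgeR adjusted p = 0.202). Neither Socs1 nor Irf1 overlapped between the groups, and WT replicate 2 was the lowest library for each. Ifngr1, a chain of the interferon-gamma receptor, was at 477 ± 39.7 CPM in MAVS KO and 600 ± 87.9 CPM in WT, and Jak1, the kinase bound to interferon receptors, at 246 ± 13.3 CPM in MAVS KO and 240 ± 17.4 CPM in WT (SD, n = 3 each).

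**Figure D4:**
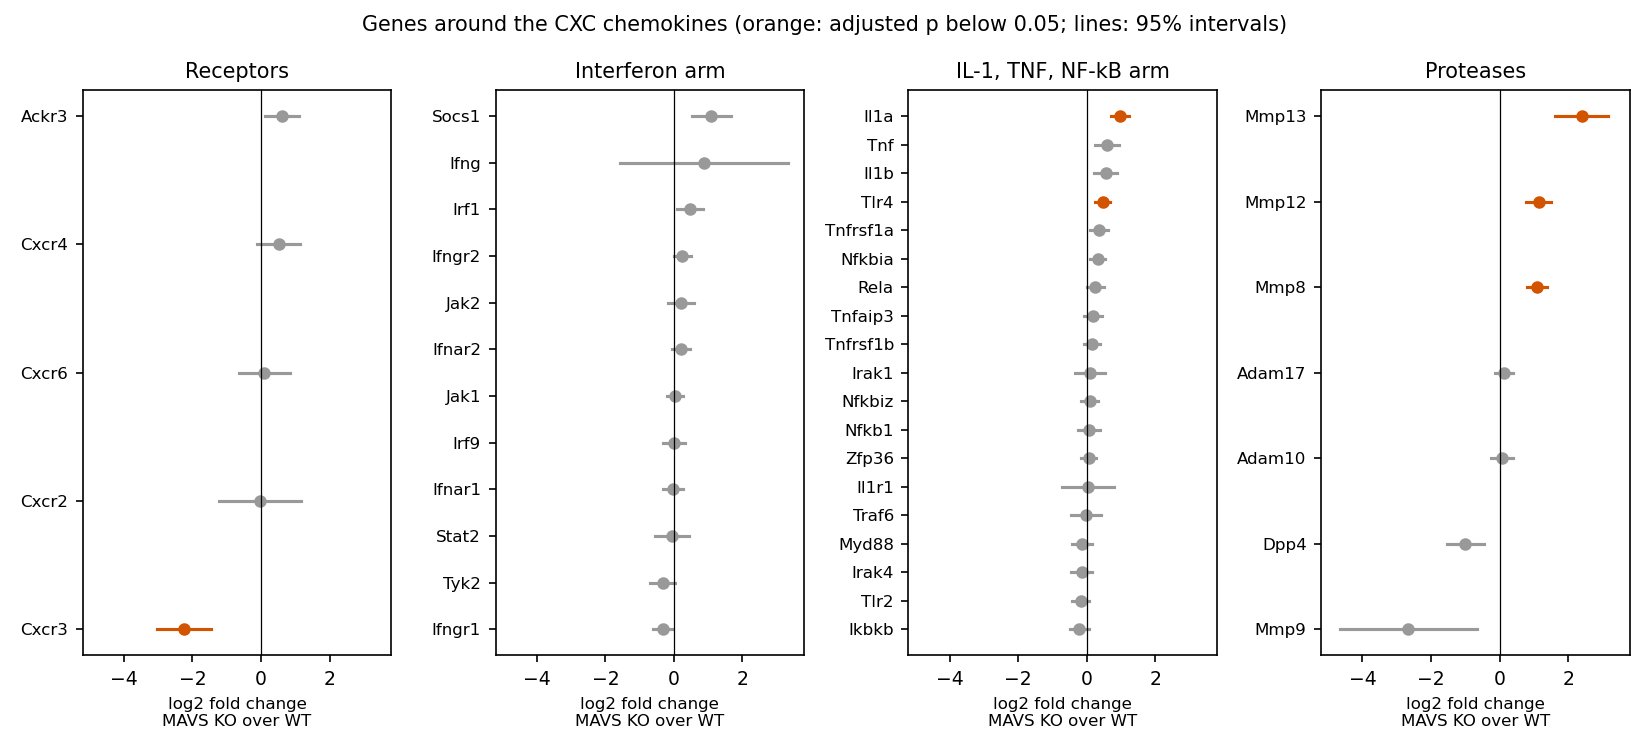
The log2 fold change of MAVS KO over WT with its 95% interval is plotted for the tested genes of the receptor, interferon, interleukin-1 and NF-kB, and protease lists, with orange points for genes past an adjusted p of 0.05. Cxcr3 is past the threshold below 0, and Il1a, Tlr4, Mmp8, Mmp12 and Mmp13 are past it above 0.

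Of 7 proteases that cut or shed chemokines, Mmp8, Mmp12 and Mmp13 rose in MAVS KO, 0 fell and 4 did not pass. Mmp12, the macrophage elastase, which trims neutrophil-attracting chemokines, stood at 17939, 14715 and 13350 CPM in MAVS KO, against 6789, 5345 and 8613 CPM in WT (log2 fold change 1.15, SE 0.16, edgeR adjusted p = 0.0126). Mmp13, a collagenase, stood at 424, 293 and 269 CPM in MAVS KO, against 37.4, 43.8 and 106.0 CPM in WT (log2 fold change 2.40, SE 0.35, edgeR adjusted p = 0.0137). Its adjusted p was 0.0511 without MAVS KO replicate 1 and 0.0507 without MAVS KO replicate 3. Mmp8, the neutrophil collagenase, stood at 61.4, 63.7 and 58.0 CPM in MAVS KO, against 28.2, 31.3 and 26.2 CPM in WT (log2 fold change 1.10, SE 0.13, edgeR adjusted p = 0.00686). In none of the 3 did the groups overlap.

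Dpp4, which removes the first residues of CXCR3 ligands and weakens them, stood at 16.8, 24.7 and 35.0 CPM in MAVS KO, against 48.1, 42.9 and 62.1 CPM in WT, with no overlap (log2 fold change -1.004, SE 0.24, edgeR adjusted p = 0.0597), and it passed with limma-voom and with the DESeq2 Wald test. Mmp9, a gelatinase, had the largest difference of the list in size without passing, at 0.899, 4.90 and 5.35 CPM in MAVS KO, against 19.2, 48.6 and 1.93 CPM in WT (log2 fold change -2.66, SE 0.90, edgeR adjusted p = 0.173). WT replicate 3 lay below 2 of the MAVS KO libraries, and without it the value was -3.21 and passed (edgeR adjusted p = 0.0323). Adam10 and Adam17 shed Cxcl16 from the cell surface. Adam10 was at 239 ± 17.9 CPM in MAVS KO and 228 ± 46.1 CPM in WT, and Adam17 at 224 ± 12.0 CPM in MAVS KO and 204 ± 24.8 CPM in WT (SD, n = 3 each), with edgeR adjusted p-values of 0.873 and 0.650. Beside these values, 12 of 13 neutrophil markers had reads and summed to 98.3 to 104 CPM in MAVS KO and 59.9 to 106 CPM in WT. Mmp8 alone passed among 6 tested. That list includes Mmp8 and Mmp9 themselves. Mmp8 made up most of each MAVS KO sum, and Mmp9 gave 48.6 CPM of the sum in WT replicate 2. Csf3r averaged 24.6 CPM in MAVS KO and 19.8 CPM in WT, and S100a8 7.50 CPM in MAVS KO and 5.13 CPM in WT. S100a9, a defining neutrophil transcript, averaged 0.0634 CPM in MAVS KO and 0.0493 CPM in WT. Endothelial markers summed to 106 to 209 CPM in MAVS KO and 41.2 to 87.8 CPM in WT, mostly from Flt1 and Pecam1. Of 3 tested, Flt1 was higher (log2 fold change 1.89, edgeR adjusted p = 0.0261, up to 0.102 when a library was left out), Pecam1 had a log2 fold change of 0.73 without passing, and Cdh5 had 0 reads in every MAVS KO library, against 5, 0 and 1 in WT. Epithelial markers of the tumour, of which 7 of 8 had reads, summed to 419 to 676 CPM in MAVS KO and 363 to 541 CPM in WT, nearly all from Cdh1. Epcam averaged 6.91 CPM in MAVS KO and 10.5 CPM in WT. Krt8, Krt18, Krt19 and Cldn3 had at most 4 reads in any library, and Krt7 had 0 reads in MAVS KO, against 6, 5 and 13 in WT. In edgeR, DESeq2 or limma-voom 0 of 2 tested passed, with 0 at an unadjusted p below 0.05.

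Genes whose levels followed a chemokine most closely over the 6 libraries were sought among 11236 named genes, as a description with no test. For Cxcl9 the 5 closest were Psenen, Tbc1d13, Ly6c1, Cisd2 and Trem3, with Pearson correlations of 0.985 to 0.990. For Cxcl10 they were Ifit1, Cstb, Sppl2a, Ndufv3 and Tnfsf13b, at 0.989 to 0.994. For Cxcl2 they were Card19, Mlf2, Katna1, Arpin and Clec5a, at 0.985 to 0.989, and for Cxcl16 they were Klf6, Oit3, Tnfaip8l3, Gbp9 and Tardbp, at 0.986 to 0.994. None of these genes passed the test between MAVS KO and WT.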

How the data were processed

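Dendritic cells from MC38 tumours were profiled by RNA sequencing in 3 MAVS KO and 3 WT samples, grouped by the genotype in the labels. The deposited values are raw counts of reads per Ensembl gene, made by the authors, and were whole numbers. Per the submitters' processing notes, mm10, HISAT2, HISAT, HTSeq and DESeq2 were used, with no role or version stated. The sources used here do not give the annotation release, the strand setting or the treatment of reads that match several genes. Symbols came from GENCODE M21 (GRCm38), which matched 26383 of 26519 identifiers.

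The test was run in R 4.3.3 with edgeR 4.0.16 (filterByExpr with minimum count 10 and minimum total 15, TMM, quasi-likelihood F test without covariates, Benjamini-Hochberg adjustment over 12580 genes, threshold 0.05). The procedure was tested on simulated data. Standard errors were derived from the log2 fold change and the F statistic of the fit. The 95% intervals were built from them with a t quantile. Log2 CPM used a prior count of 2 in the check of replicate numbers as pairs. Correlations between genes and averages over a class used smaller offsets added to CPM. Transcript identity used blastn 2.17.0. Alternatives were DESeq2 1.42.0 size factors and Wald test, library size alone, no filter, limma-voom (limma 3.58.1), robust dispersion, a block on replicate number, and leaving out each library. No pair of libraries within a group was a duplicate (chi-square per degree of freedom from 15.9 to 38.8).

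The members, the gene lists and the cell type markers were chosen with earlier results of these data known. Of each pathway list, genes past the threshold and the 3 of highest mean CPM are named, with all other CXC chemokines and receptors and, for 4 members, the 5 genes of most similar pattern. Socs1, Tnf, Dpp4, Mmp9 and the cell type markers given by name are named outside this rule, chosen once their values were seen. Of the interferon list 1 gene is not reported here.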

Additional observations from a re-analysis of the deposited data

How the results depend on the processing

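Of 104 log2 fold changes of the 8 members under the alternatives 102 were above 0, and the others were Cxcl1 with library size alone (-0.050) and Cxcl14 without MAVS KO replicate 2 (-0.062, in a range of -0.062 to 0.50 over the exclusions). The number of members past the threshold, 2, became 0 with library size alone, 4 without the filter, 4 with the DESeq2 Wald test, 1 with limma-voom and 0 to 1 when each library was left out. The 354 genes past the threshold overall became 924 without the filter, 772 with the DESeq2 Wald test, 348 with DESeq2 size factors, and 36 to 277 when each library was left out. With library size alone 102 genes were higher and 341 lower in MAVS KO, against 222 higher and 132 lower with TMM; the cause was not tested. The difference between the chemokine classes stayed below 0 under every alternative, from -0.39 to -0.15. Replicate numbers were checked as pairs: deviations of same-numbered libraries from their group means correlated at 0.04, 0.09 and -0.04, and not every library correlated best with its own number. A replicate block gave 414 genes and 2 members (Cxcl2 0.49, edgeR adjusted p = 0.0394; Cxcl9 0.95, edgeR adjusted p = 0.0394), and Tlr4 no longer passed (0.47, edgeR adjusted p = 0.0618). Other named genes, added after seeing the data, that changed sign had not passed the test. With library size alone, Adam10 was -0.10, Adam17 -0.034, Cxcr6 -0.070, Jak1 -0.13 and Zfp36 -0.11. Cxcr2 was 0.26 with limma-voom and 0.13 with the replicate block, and Pf4 was 0.083 with limma-voom and 0.10 with the block. Over the exclusions of 1 library, Adam10 ran from -0.056 to 0.23, Cxcr2 ran from -0.47 to 0.42, Cxcr6 ran from -0.17 to 0.23, Jak1 ran from -0.028 to 0.084, Pf4 ran from -0.26 to 0.54 and Zfp36 ran from -0.024 to 0.12. Each member that passed lost its call when some single library was left out, and depth limits Cxcl11 most, at 61 to 145 reads a library.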

Other observations

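None of the other tested genes around the 2 chemokine clusters on chromosome 5 passed the test between MAVS KO and WT. Among all 12580 tested genes, 2009 had an unadjusted edgeR p below 0.05. Within 500 kb of the cluster that holds Cxcl1, Cxcl2 and Cxcl3, 8 other genes were tested and 0 passed in edgeR, the DESeq2 Wald test or limma-voom, with 1 at an unadjusted edgeR p below 0.05. Their median log2 fold change was 0.08, with a range of -0.57 to 0.61. Areg, which encodes the growth factor amphiregulin, averaged 45.7 CPM in MAVS KO and 33.03 CPM in WT (log2 fold change 0.47, edgeR adjusted p = 0.295). Within 500 kb of the cluster that holds Cxcl9, Cxcl10 and Cxcl11, 12 other genes were tested and 0 passed by any of the 3 tools, with 1 at an unadjusted edgeR p below 0.05. Their median log2 fold change was 0.05, with a range of -0.44 to 0.66. Naaa, which encodes a lysosomal amidase that breaks down fatty acid ethanolamides and is the most abundant of them, averaged 466 CPM in MAVS KO and 578 CPM in WT (log2 fold change -0.31, edgeR adjusted p = 0.373).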
